A study of Mus musculus with 2 samples.

Results

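Dense clusters of DNase I hypersensitive sites (DHSs) were described in the adrenal gland, 368 clusters that together held 1762 DHSs. DNase I cuts DNA in nuclei where chromatin is open, and a DHS is a stretch with many cuts. The samples were adrenal glands of 2 male B6CASTF1/J mice, F1 hybrids of the B6 and CAST strains, aged 25 days, with no treatment. There was 1 library for each animal, replicate 1 and replicate 2 of a single group, so no conditions could be compared and no p-value is given. The labels call the libraries biological replicates and number the animals separately, but give both the same donor code.

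The members were chosen by measured values, namely the positions of the deposited DHSs and their overlap between libraries. Of 79456 autosomal DHSs in the shorter of the 2 deposited lists of replicate 1, 49110 overlapped a replicate 2 DHS by at least 1 bp. Of these, 28810 lay over 1 kb from every protein-coding start of GENCODE M21 and are called shared distal DHSs here. They were chained wherever the gap to the next was at most 5 kb, and chains of 4 or more were kept. This gave 22911 chains, of which 18748 held a single DHS, 3085 held 2, 710 held 3 and 226 held 4. The clusters thus held 6.12% of the shared distal DHSs (95% Wilson interval 5.84 to 6.398), and the other 27048 stayed outside. The clusters held 8.05% of the summed height of shared distal DHSs in replicate 1 and 8.61% in replicate 2. Height is the deposited signal value of a peak, and clusters were ranked by its sum in replicate 1. The number, size, rank and height of clusters are therefore descriptions. All positions are in mm10.

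At the limits of the rule, the longest gap inside a cluster was 5000 bp and the shortest gap that ended one was 5020 bp. The nearest cluster DHS to a protein-coding start was 1002 bp away, and the farthest shared DHS left out was 1000 bp away. The median summed height in replicate 1 was 15.3 for chains of 4 and 10.1 for chains of 3.

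Open sites that lie close together often belong to the same gene's promoters and enhancers, and long runs of them have been described at genes that are highly expressed or tightly regulated in a tissue. Enhancers bind transcription factors in short stretches that DNase I then spares, which leaves footprints. In the adrenal gland, the cortex makes steroid hormones from cholesterol under the control of the pituitary hormone ACTH, of angiotensin II and of potassium, and the medulla's chromaffin cells make catecholamines.

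The sequences below are the strongest DHSs of at most 300 bp outside exons in 7 clusters on which the results turn, from the mm10 plus strand. They are the reference (C57BL/6J) sequence, while the mice also carry CAST chromosomes. Capitals mark bases inside a deposited footprint of both libraries.
Kdm6b cluster, rank 1, chr11:69417581-69417780: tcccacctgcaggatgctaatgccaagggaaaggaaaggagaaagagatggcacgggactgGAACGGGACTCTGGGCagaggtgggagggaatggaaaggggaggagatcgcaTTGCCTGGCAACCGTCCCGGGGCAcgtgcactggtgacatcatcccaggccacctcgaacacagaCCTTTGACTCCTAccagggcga
Zfp503 cluster, rank 2, chr14:21988361-21988560: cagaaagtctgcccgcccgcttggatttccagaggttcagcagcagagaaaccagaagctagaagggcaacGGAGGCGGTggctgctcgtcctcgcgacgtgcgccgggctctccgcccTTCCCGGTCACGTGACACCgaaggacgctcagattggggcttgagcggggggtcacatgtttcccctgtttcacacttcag
cluster beside let-7 genes, rank 4, chr13:48546521-48546820: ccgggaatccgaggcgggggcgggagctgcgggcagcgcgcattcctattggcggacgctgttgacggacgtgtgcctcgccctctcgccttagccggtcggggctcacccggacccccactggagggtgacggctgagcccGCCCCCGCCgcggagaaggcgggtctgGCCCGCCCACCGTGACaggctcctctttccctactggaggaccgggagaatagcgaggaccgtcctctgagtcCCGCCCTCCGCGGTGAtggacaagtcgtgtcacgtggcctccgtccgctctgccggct
Mnt cluster, rank 10, chr11:74832201-74832400: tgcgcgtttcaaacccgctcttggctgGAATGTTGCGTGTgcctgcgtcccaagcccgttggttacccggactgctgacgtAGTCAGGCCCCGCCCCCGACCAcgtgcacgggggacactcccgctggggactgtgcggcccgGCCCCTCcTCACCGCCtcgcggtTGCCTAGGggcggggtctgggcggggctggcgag
Nacc2 cluster, rank 12, chr2:26140501-26140700: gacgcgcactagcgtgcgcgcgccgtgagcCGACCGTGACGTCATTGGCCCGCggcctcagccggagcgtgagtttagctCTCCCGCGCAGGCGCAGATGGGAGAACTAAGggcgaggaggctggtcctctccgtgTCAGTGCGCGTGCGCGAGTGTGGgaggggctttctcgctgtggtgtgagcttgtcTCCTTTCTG
Scarb1 cluster, rank 127, chr5:125267161-125267340: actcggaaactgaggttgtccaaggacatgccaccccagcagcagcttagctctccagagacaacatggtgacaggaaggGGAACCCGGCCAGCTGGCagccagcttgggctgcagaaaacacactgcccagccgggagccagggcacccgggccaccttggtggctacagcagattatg
Nr4a1 cluster, rank 134, chr15:101246401-101246480: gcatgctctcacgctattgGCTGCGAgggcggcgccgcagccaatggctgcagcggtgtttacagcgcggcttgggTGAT

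A second set shows 3 DHSs on tRNA genes, the kind of site whose height differed in 1 direction between the libraries. Capitals mark the tRNA gene as RefSeq places it. The genes encode tRNA-Pro on the plus strand, tRNA-Gly on the minus strand and tRNA-Gly on the plus strand.
n-TPcgg3, cluster nearest to Aurkb, rank 11, chr11:69040241-69040460: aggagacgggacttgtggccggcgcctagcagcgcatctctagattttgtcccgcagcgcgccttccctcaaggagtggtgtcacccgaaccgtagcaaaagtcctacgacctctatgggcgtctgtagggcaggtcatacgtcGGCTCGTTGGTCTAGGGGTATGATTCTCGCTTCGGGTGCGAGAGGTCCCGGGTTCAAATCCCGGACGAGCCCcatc
n-TGtcc6, cluster nearest to Aurkb, rank 11, chr11:69041221-69041380: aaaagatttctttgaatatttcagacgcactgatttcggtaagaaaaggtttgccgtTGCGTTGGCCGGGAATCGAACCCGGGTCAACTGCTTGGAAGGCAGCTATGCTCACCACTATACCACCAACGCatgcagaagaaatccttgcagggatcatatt
n-TGtcc3, cluster nearest to Cfap126, rank 142, chr1:171102701-171102860: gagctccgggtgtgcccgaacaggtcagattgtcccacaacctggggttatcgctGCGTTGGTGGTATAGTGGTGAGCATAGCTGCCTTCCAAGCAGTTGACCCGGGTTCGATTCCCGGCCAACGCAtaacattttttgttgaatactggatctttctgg

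Among the non-tRNA sequences, short known consensus sequences could be placed against the footprints. In the Zfp503 DHS, the E-box CACGTG that starts at base 128 had all 6 of its bases in footprints of both libraries, while its 2 GGGCGG copies had 0. The same E-box had 2 of 6 bases in footprints in the Kdm6b and Mnt DHSs and 0 in the DHS beside the let-7 genes. In the Nacc2 DHS, the cyclic AMP response element TGACGTCA, the site of CREB and ATF factors, started at base 37 with all 8 bases in such footprints. In the Mnt DHS, the KLF and SP factor sequence GGGCGG was found at 3 places, and the copy on the minus strand at base 91 lay wholly in footprints. In the DHS beside the let-7 genes, GGGCGG was found at 4 places on either strand, 2 of them wholly in footprints. In the Scarb1 DHS, the E-box CAGCTG at base 91 lay wholly in footprints. The GGGCGG of the Nr4a1 DHS, at base 27, lay in none. These matches describe the reference letters and do not name a bound factor.

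Adrenal gland labels were set against marker genes first. A promoter DHS, at most 1 kb from a protein-coding start, was found for 12 of 15 steroid synthesis genes in each library, for 22 and 15 of 26 chromaffin genes in replicates 1 and 2, and for 0 of 12 liver genes in both. Of the other marker lists for tissues outside the gland, brain neurons had 7 and 5 of 10, adipocytes 8 and 5 of 9, skeletal muscle 4 and 2 of 9 and kidney 2 and 0 of 10. Over all 20698 autosomal protein-coding genes the numbers with a promoter DHS were 13800 and 13082. At Nr5a1, which encodes the orphan receptor SF-1 that drives adrenal development, the promoter height was 9.01 in replicate 1 and 4.09 in replicate 2, and at the cholesterol transporter gene Star it was 7.55 and 4.02. The defining glomerulosa gene Cyp11b2 and the ACTH receptor gene Mc2r had no DHS at a protein-coding start in either library. In whole tissue, fewer cells of a type and weaker opening in each cell cannot be told apart. Replicate 1 heights came in multiples of 0.00833 and replicate 2 heights in multiples of 0.00888, allowing 0.05 of that unit, and if heights are CPM values, which no source states, the library totals would be 120.0 M and 112.6 M. Replicate 1 had the higher median, 1.83 against 1.66, and the longer list, 81558 against 65480 DHSs.

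The clusters were compact. Their median length was 6370 bp, from 1140 to 19300 bp, and the median gap between neighbouring DHSs was 860 bp. DHSs filled a median of 14.2% of a cluster's span. Of 1394 gaps, 31 were at or below 0 bp, since the deposited list holds some DHSs that overlap or touch, and this concerned 28 clusters. Stretches with a deposited false discovery rate (FDR) of at most 0.05 covered 32.7% of the cluster spans in replicate 1 and 30.2% in replicate 2. The longer deposited lists placed 2342 and 2405 DHSs in these spans, against 2114 and 2042 in the shorter ones, promoter DHSs included. The strongest DHS held a median of 40.5% of a cluster's summed height, where the median cluster had 4 DHSs.

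Clusters lay near genes. The centre was within 5 kb of a protein-coding start for 93 of 368 clusters, 5 to 20 kb away for 129, 20 to 100 kb away for 122 and farther for 24. A protein-coding start lay inside 52 clusters, and 152 centres (41.3%, interval 36.4 to 46.4) lay inside a protein-coding gene. The median number of protein-coding genes with a start within 100 kb was 3, and the most was 18. Cluster DHSs were a median of 11603 bp from a start, against 23942 bp for the other shared distal DHSs. Of cluster DHSs, 59.2% were intergenic, 29.5% intronic and 11.3% exonic, against 49.6%, 42.4% and 7.99% of the others. Only protein-coding genes counted here, so a DHS inside a lncRNA gene alone was taken as intergenic. Chromosome 11 held 48 clusters, or 3.93 for every 10 Mb, against 1.49 over all autosomes, and 17 of the 50 clusters of highest rank. It was also the chromosome with the most clusters for its genes, 2.93 per 100 protein-coding genes against 1.78 overall.

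The cluster of highest rank lay at Kdm6b, which encodes a demethylase of lysine 27 of histone H3. Its 13 DHSs at chr11:69408581-69420480 had summed heights of 95.9 in replicate 1 and 70.8 in replicate 2, and it ranked first in both. The single heights ran from 1.72 to 18.1 in replicate 1 and from 1.63 to 10.7 in replicate 2. The cluster spans a Kdm6b start, yet neither shorter list had a promoter DHS for Kdm6b. The DHSs stood instead in 2 groups on either side, 7 in the gene and 6 upstream. The strongest was the upstream DHS printed above, with 18.1 and 10.7.

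The cluster with the most DHSs, 17, lay at Zfp503, a zinc finger gene whose product represses transcription, at chr14:21981541-21995740. It ranked second in both libraries, with sums of 72.1 in replicate 1 and 55.4 in replicate 2. Its mean height of 4.24 in replicate 1 was under that of Kdm6b, 7.37. Tnrc18 had the next most, 14 DHSs with sums of 54.5 and 37.7, and 4 promoter DHSs inside it had been left out by the rule.

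Ranks 3, 4 and 8 lay at starts of non-coding genes beside microRNA genes. The cluster at chr8:84192081-84204280 had 9 DHSs with sums of 68.7 in replicate 1 and 44.9 in replicate 2. Its nearest protein-coding gene was Nanos3, known for its role in germ cells, 21629 bp from the centre, but 2 of its DHSs lay within 1 kb of a start of the lncRNA gene Gm26887. The microRNA genes Mir23a, Mir27a and Mir24-2 lay 4238, 4392 and 4535 bp beyond its end. The cluster at chr13:48545801-48553780 had 6 DHSs with sums of 67.6 and 51.9, and 2 lay at a start of the lncRNA gene 6720427I07Rik. The gene Mirlet7a-1 was 7529 bp away, Mirlet7f-1 7884 bp and Mirlet7d 9687 bp, while the nearest protein-coding start, of A830005F24Rik, was 36221 bp from the centre. Its 2 strongest DHSs had heights of 22.8 and 21.9 in replicate 1 and of 19.4 each in replicate 2. The cluster at chr11:75460501-75463160 had 4 DHSs with sums of 53.3 and 45.1, of which 3 lay at starts of Mir22hg, the host gene of miR-22, and its mean height of 13.3 was the highest of all clusters. Its centre lay inside Tlcd2, also the nearest protein-coding gene by start.

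The mature microRNAs of these 3 loci are given from RefSeq (GRCm38.p6), with the seed, bases 2 to 8, in capitals. The 3 let-7 members share a seed, and the others each have their own.
let-7a-5p: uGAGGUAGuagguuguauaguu
let-7f-5p: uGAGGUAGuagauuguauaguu
let-7d-5p: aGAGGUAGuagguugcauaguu
miR-22-3p: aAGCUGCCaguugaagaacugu
miR-23a-3p: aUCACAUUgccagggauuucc
miR-27a-3p: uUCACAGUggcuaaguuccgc
miR-24-3p: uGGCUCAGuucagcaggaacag

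The DHS data do not measure these RNAs. A start of some transcript other than a protein-coding one, or a tRNA gene, lay within 1 kb of a DHS in 151 of 368 clusters. This was so for 32 of the 50 clusters of highest rank (64.0%, interval 50.1 to 75.9) and for 119 of the other 318 (37.4%, interval 32.3 to 42.9). Rank follows summed height, and a cluster with more DHSs has more chances to lie at such a start. The shares were not matched on the number of DHSs. Over single DHSs, 23.3% of those in clusters (interval 21.4 to 25.4) lay within 1 kb of such a start, against 8.98% of those outside (8.65 to 9.33). For lncRNA starts the shares were 11.7% and 4.07%, and for tRNA genes 5.56% and 0.362%. The starts of non-coding transcripts of protein-coding genes, which the rule does not treat as promoters, accounted for 6.81% and 4.48%.

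The remaining clusters of the first 12 lay near protein-coding or tRNA genes. Junb, an immediate early gene and AP-1 subunit, was nearest to rank 5, at chr8:84973921-84986000, whose 9 DHSs summed to 61.2 in replicate 1 and 53.7 in replicate 2. Its heights ran from 1.25 to 16.2 in replicate 1 and from 1.07 to 13.01 in replicate 2, and 3 of its DHSs were higher in replicate 2. Rank 6 lay at Ptma, which encodes prothymosin alpha, at chr1:86522498-86532640, and its 6 DHSs summed to 60.2 and 37.3. Rank 9, at chr12:86787321-86806620, was the longest cluster, 19300 bp with 7 DHSs, and summed to 52.9 and 33.0. Its centre was 62588 bp from its nearest protein-coding start, that of the leucine-rich repeat gene Lrrc74a, and no protein-coding start was inside. None of its DHSs lay within 1 kb of a lncRNA start, microRNA gene, tRNA gene or non-coding transcript start of a protein-coding gene. Rank 10 lay in Mnt, whose product pairs with MAX and represses transcription, at chr11:74832201-74839240, and its 5 DHSs summed to 51.99 and 37.2, of which the DHS printed above held 29.2 and 18.1. Rank 11, nearest to the mitotic kinase gene Aurkb, held tRNA genes and is described further on. Rank 12, nearest to Nacc2, which encodes a BTB domain repressor, at chr2:26139981-26143860, summed to 49.4 and 37.1 over 4 DHSs. The DHS printed above had heights of 35.3 and 25.8, the highest of any single DHS in the 12 clusters in both libraries, and 2 of the 4 DHSs lay within 1 kb of a start of Tmem250-ps.

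**Figure D1:**
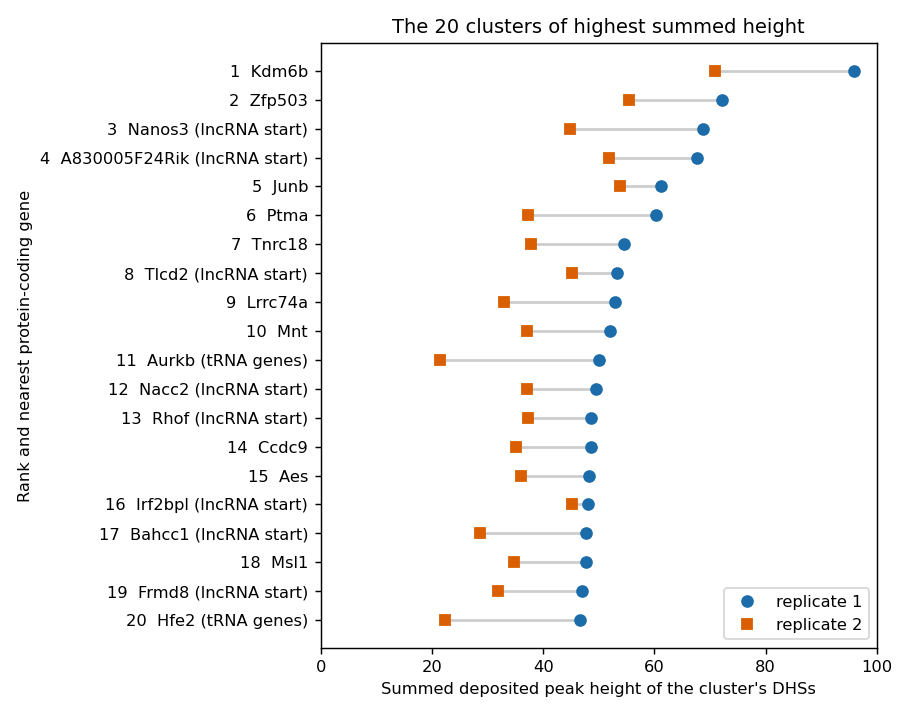
Summed deposited peak height (x axis) of the 20 clusters of highest rank, with circles for replicate 1 and squares for replicate 2, named by rank and nearest protein-coding gene. All 20 were lower in replicate 2, and the lowest values of replicate 2 are 21.4 and 22.4 for the tRNA gene clusters nearest to Aurkb and Hfe2.

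Ranks 13 to 30 summed to between 40.7 and 48.7 in replicate 1 and between 18.5 and 45.2 in replicate 2. Among their nearest genes were the corepressor gene Spen, Msl1 of a histone acetyltransferase complex, and the zinc finger gene Zbtb20. Bahcc1 was nearest to ranks 17 and 27. Further ranks lay nearest to Rhof, Ccdc9, Aes, Irf2bpl, Midn, Zfp958, A930004D18Rik and Gm11444. The cluster nearest to Frmd8, rank 19, had DHSs within 1 kb of starts of Frmd8os and Neat1, an RNA on which paraspeckles are built, and summed to 47.0 and 31.9. The closest match between libraries among these was rank 16, nearest to Irf2bpl, with 48.1 and 45.2. The second longest cluster, nearest to Fgd2 at rank 33, had 7 DHSs over 16800 bp. In all, 18 genes were nearest to 2 clusters each, among them Meis1, Sox4, Smad6 and Zmiz1.

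**Figure D2:**
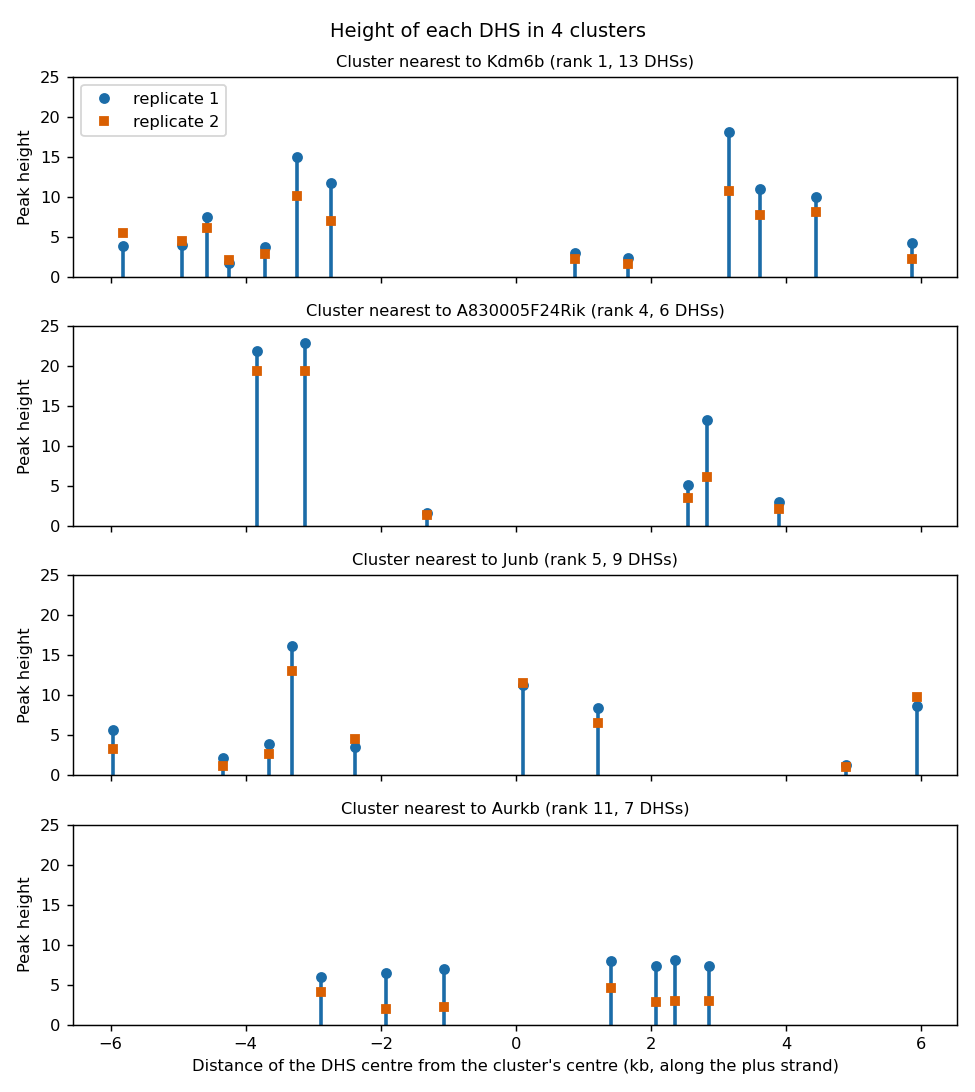
Height of each DHS (y axis, deposited peak height) against the distance of its centre from the cluster's centre (x axis, kb) in 4 clusters, with circles and lines for replicate 1 and squares for replicate 2. The Kdm6b cluster has 2 groups of DHSs beside an empty middle, and the 7 DHSs of the cluster nearest to Aurkb range from 5.91 to 8.02 in replicate 1 and from 2.01 to 4.53 in replicate 2.

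The genes of adrenal function were then looked up among the genes nearest to clusters. Of 20698 autosomal protein-coding genes, 350 were nearest to a cluster, or 1.69%. None of 15 genes of steroid hormone synthesis was among them, although 11 of the 15 had at least 1 shared distal DHS nearest to them. This depended on the list, since the longer lists gave 5 of 15, Cyp21a1, Fdxr, Hsd11b2, Por and Star, against 5.44% of all genes, and chains of at least 3 gave 2, against 4.67%. The longest chain at these genes was of 3, at Fdx1 and Fdxr, the electron carrier ferredoxin and its reductase, which had 6 and 3 shared distal DHSs. Cyp11a1, which starts steroid synthesis from cholesterol, also had 6 but in chains of at most 2, and Star had 2. Widening the reach to any start within 100 kb of a cluster's centre, which took in 5.98% of all genes, added Cyp11b1 and Cyp11b2, the last enzymes of corticosterone and aldosterone synthesis. Of 26 chromaffin genes none was nearest, again near the 1.69% of all genes for a short list. Only Th, the rate-limiting enzyme of catecholamine synthesis, came within 100 kb.

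Of 21 adrenocortical regulators, 3 were nearest to a cluster (14.3%, against 1.69% of all genes). Chains of at least 3 gave 7, and the longer lists gave 9, among them Nr5a1 and Mc2r. Nr4a1, a nuclear receptor gene that ACTH induces in the cortex, had 4 DHSs at chr15:101239341-101246480 that summed to 22.5 in replicate 1 and 16.7 in replicate 2. Its DHS of 80 bp printed above had 12.4 and 12.6, while another DHS, of 5.97 in replicate 1, had 1.30 in replicate 2. Nr4a2, a receptor known to raise CYP11B2 transcription in human cells, had 4 DHSs with sums of 13.8 and 11.2. Nr2f1, which encodes COUP-TFI, had 4 DHSs with sums of 22.2 and 15.2. Scarb1, the receptor that takes up cholesterol esters from high-density lipoprotein, was the 1 gene of 21 in cholesterol synthesis and uptake, and its 5 DHSs at chr5:125264841-125274120 summed to 23.1 and 14.9. They lay downstream, 19989 to 29069 bp from the nearest start, with heights of 3.31 to 6.58 and 1.86 to 3.76, and all were lower in replicate 2. Kcnk3, a potassium channel gene of the zona glomerulosa, had 4 DHSs with sums of 13.3 and 7.06, also all lower in replicate 2.

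Immediate early genes, whose transcription rises within minutes of a stimulus, had the highest share of any list. Of 16, 7 were nearest to a cluster (43.8%), against the 1.69% of all genes. Besides Junb and Nr4a1 these were Ier2, Fosb, Nr4a3, Jun and Egr3. Ier2 had 6 DHSs, with sums of 35.1 in replicate 1 and 36.1 in replicate 2, and was the only 1 of the 7 that was higher in replicate 2. Fosb had sums of 31.9 and 16.2, and the strongest DHS of that cluster had 17.99 and 7.31. This DHS was 4852 bp from its own nearest start and not among those nearest to Fosb, of which the strongest, outside the cluster, had 17.7 and 14.2. Nr4a3 had sums of 30.7 and 27.4, Jun of 19.5 and 14.3, and Egr3 of 17.1 and 13.7. The centre of the cluster nearest to Jun was 105569 bp from it, so this assignment is the least sure of the 7. All 16 immediate early genes had a DHS at a start in both libraries, against 13800 and 13082 of all 20698 genes. They had a median of 5.5 shared distal DHSs each. The medians were 4.0 for adrenocortical regulators and 2.0 each for steroid synthesis and chromaffin genes, and that over all genes was not counted. With chains of at least 3, the share was 10 of 16 against 4.67% of all genes, and with the longer lists 13 of 16 against 5.44%.

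For the other lists too, the share of all genes nearest to a cluster was 1.69%. Of 18 genes of the NFI, TEAD and TALE homeobox factors, 4 were nearest to a cluster (22.2%). Nfic had 10 DHSs with sums of 38.7 in replicate 1 and 21.5 in replicate 2, Nfia 4 with 30.5 and 17.8, and Meis2 5 with 25.3 and 14.99. Meis1 was nearest to 2 clusters, with sums of 12.5 and 8.73 and of 7.6 and 6.20. The DHSs of the Meis2 cluster lay far off, 203452 to 211560 bp from the nearest start. Those of the first Meis1 cluster lay 140774 to 147074 bp away, so these 2 assignments are unsure. Within 100 kb of a cluster's centre the list had 3 of its 18 genes, against 5.98% of all genes. Of 18 clock genes, the repressor genes Cry2 and Nfil3 were nearest (11.1%). The 4 DHSs of Cry2 lay in its introns and summed to 34.6 in replicate 1 and 15.2 in replicate 2, and the strongest had 25.1 and 7.91. Nfil3 had sums of 18.1 and 10.6. Of 31 nuclear receptors, Ppara, Rara and Nr2f1 were nearest (9.68%). Ppara, the fatty acid receptor gene, had 12 DHSs that summed to only 20.3 and 13.1, while the 5 DHSs of the retinoic acid receptor gene Rara summed to 30.8 and 25.7. The DHSs of the Ppara cluster lay 45423 to 57764 bp from the nearest start, so this assignment is unsure too. None of 23 genes of protein kinase A and cyclic AMP signalling was nearest. Of 23 Wnt and hedgehog genes only Wnt11 was nearest (4.35%), and its cluster held tRNA genes. Of the marker lists of other cells, adipocytes had Lep (1 of 9), kidney Slc12a3 (1 of 10) and brain neurons Rbfox3 (1 of 10). The sums of these clusters in replicate 1 were 7.19, 14.7 and 9.64. The DHSs of the Lep cluster lay 73156 to 79004 bp from the nearest start, so that assignment is unsure. The lists of endothelium, macrophages, lymphocytes, erythroid cells, liver, skeletal muscle, capsule and fibroblasts, Schwann and sustentacular cells and the X-zone had none. In total 23 of 326 distinct list genes were nearest to a cluster (7.06%, against 1.69% of all genes). The lists were chosen with earlier results of these data known, so these counts are descriptions.

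**Figure D3:**
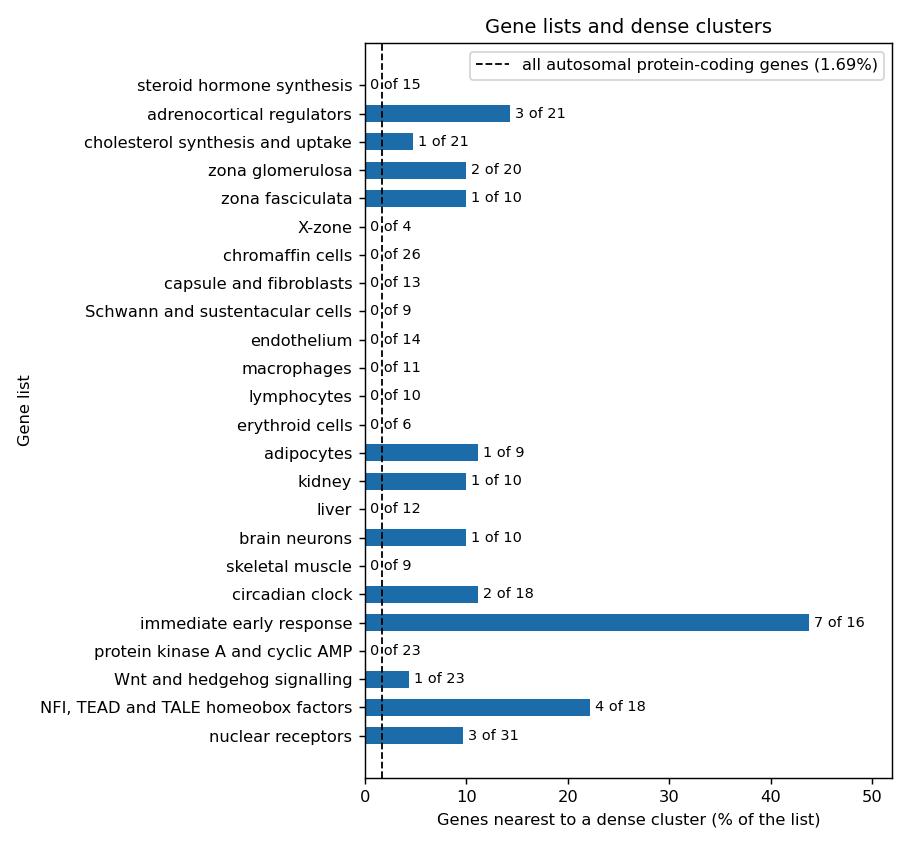
Share of each gene list that was nearest to a cluster (x axis, percent of the list's autosomal genes), with counts beside the bars and a dashed line at the 1.69% of all autosomal protein-coding genes. Immediate early genes stand highest at 7 of 16. Steroid synthesis and chromaffin genes are at 0, which for such short lists is near the dashed line.

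The libraries ranked the clusters similarly. Across 368 clusters the summed heights correlated with a Spearman rho of 0.868, given as a description, since both sums run over the same DHSs. Of the 12 clusters of highest rank in replicate 1, 8 were among the 12 of replicate 2, and of the first 50, 36. The same DHS was the strongest in both libraries in 250 clusters (67.9%, interval 63.0 to 72.5). The sum was lower in replicate 2 in 343 of 368 clusters. On the log2 scale, replicate 2 over replicate 1, the median was -0.51, from -1.71 nearest to Cfap126 to 0.37 nearest to Ankdd1a. The median over single cluster DHSs was -0.39, against -0.43 for the other shared distal DHSs. Since the ratio falls with height in replicate 1, from 0.18 in the lowest of 4 height classes to -0.74 in the highest among cluster DHSs, it is also given within height classes.

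Clusters at tRNA genes had lower ratios than most others, with overlap. tRNA genes are short, are transcribed by RNA polymerase III, and carry their promoter inside the gene, with a B box that binds TFIIIC. They often lie in groups. Of 391 autosomal tRNA genes in RefSeq, 199 touched a DHS of replicate 1, 129 one of replicate 2, and 65 a cluster DHS. A DHS within 1 kb of a tRNA gene occurred in 21 clusters, 5 of them on chromosome 11 and 5 on chromosome 13, and in 10 of the 21 every DHS was near one. All 21 were lower in replicate 2, as were 322 of the other 347 clusters. The log2 ratio of the 21 had a median of -1.01, against -0.48 for the other 347. The ranges overlapped, from -1.71 to -0.37 at tRNA genes and from -1.68 to 0.37 elsewhere, and 14 of the 21 against 49 of the 347 lay below -0.9. The cluster nearest to Aurkb had 7 DHSs near 7 tRNA genes, with sums of 49.99 in replicate 1 and 21.4 in replicate 2, where its rank was 66. Clusters nearest to Hfe2 and Olfr1423 had sums of 46.7 and 22.4, and of 42.3 and 22.4. The lowest ratio of all clusters, -1.71, was that of the 4 DHSs nearest to Cfap126, whose sums were 21.9 and 6.71.

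The lower ratios were seen at DHSs that touched a tRNA gene. Of the 65 cluster DHSs that touched a tRNA gene, 65 were lower in replicate 2, as were 75.4% of the 1697 that touched none. The log2 ratio of the 65 had a median of -1.37 (lowest -2.20, highest -0.06). Their median height was 7.25 in replicate 1 and 2.27 in replicate 2. The 33 cluster DHSs within 1 kb of a tRNA gene but not on it had a median ratio of -0.06, and 20 of them (60.6%) were lower in replicate 2. Their median height in replicate 1 was 3.67, against 7.25 for the 65, so the sets are not alike in height. In the cluster nearest to Cfap126, 3 DHSs near tRNA genes had heights of 4.94, 8.47 and 7.25 in replicate 1 and 1.18, 2.14 and 1.96 in replicate 2, while the fourth had 1.22 and 1.42. The 53 shared distal DHSs on tRNA genes outside the clusters were also all lower in replicate 2, with a median of -1.31. The chaining did not keep these. Of the 26950 DHSs outside clusters with no tRNA gene within 1 kb, 73.6% were lower, with a median of -0.43.

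The difference was seen in the highest of 4 height classes, where the 50 cluster DHSs on tRNA genes had a median ratio of -1.57, against -0.67 for 576 other cluster DHSs. Below that class, medians were taken only for DHSs within 1 kb of a tRNA gene, a set that includes DHSs not on the gene. Their medians, against those of other cluster DHSs, were -0.48 (n = 18) against -0.41 in the next class and -0.38 (n = 14) against -0.19 in the one below. The 3 such DHSs of the lowest class had 0.62, against 0.17. These medians therefore do not give the difference on the tRNA gene itself. Below the highest class, DHSs that touched a tRNA gene had ratios from -1.87 (chr13:22022381, height 4.22 in replicate 1) to -0.06 (chr8:94703481, height 2.37). Cluster DHSs off tRNA genes that were as rich in CpG, with an observed over expected ratio of at least 0.6, had -0.39 (n = 422). tRNA genes have near-identical copies, so reads can be hard to place, and 37 of the 65 DHSs had a middle of 31 bases found more than once in the reference. These 37 had a median of -1.55, and the 28 found once had -1.22 and were all lower. The 13 cluster DHSs with a repeated middle off tRNA genes had -0.10, but they were much lower in replicate 1, with a median height of 1.54 against 6.47 for the 37, so the sets are not alike in height. How the authors treated reads with several placements is not given in the sources used here, and its part in the difference was not tested.

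**Figure D4:**
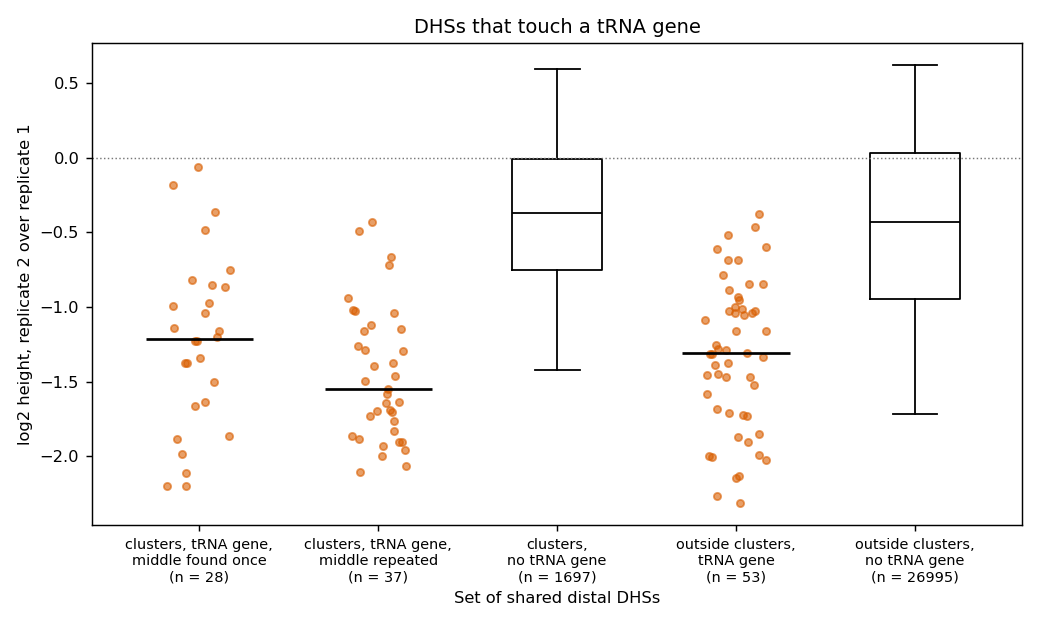
Log2 ratio of height, replicate 2 over replicate 1 (y axis), of shared distal DHSs inside and outside the clusters, split by whether they touch a tRNA gene and, in clusters, by whether their middle 31 bases are repeated in the reference. Points are single DHSs with a line at the median, and boxes show the quartiles with whiskers from the 5th to the 95th percentile. All points at tRNA genes lie below 0, with medians of -1.22, -1.55 and -1.31.

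Sequence features were read from the reference, which the rule did not use. Cluster DHSs were richer in CpG than the other shared distal DHSs. The ratio of observed to expected CpG in 500 bp was at least 0.6 for 27.0% of cluster DHSs (interval 24.9 to 29.1) and 7.32% of the others (7.02 to 7.64). Their median width was 180 bp against 160 bp. The letters GGGCGG, bound by KLF and SP factors, were present in 30.6% of cluster DHSs (28.5 to 32.8), in 12.6% of the others and in 4.39% of windows of equal length 2 kb from cluster DHSs that touched no DHS. Among CpG-rich DHSs the shares were nearer to each other, 56.4% in clusters and 50.4% outside. Among DHSs with a lower CpG ratio they were 21.1% and 9.63%.

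AP-1 sites, TGANTCA, went the other way, with 12.8% of cluster DHSs (11.3 to 14.4) against 18.1% of the others. The CTCF core sequence was in 2.497% and 4.71%, and TTGGCA, bound by NFI factors, in 15.8% and 18.8%. Among CpG-rich DHSs, AP-1 sites were in 4.21% of cluster DHSs and 4.65% of the others, and below that CpG ratio in 15.9% and 19.2%. For TTGGCA the shares were close within each CpG class, 7.58% and 7.78% among CpG-rich DHSs and 18.9% and 19.7% below. For the CTCF core they were 1.26% and 2.22% among CpG-rich DHSs and 2.95% and 4.91% below. The extended NR5A sequence TCAAGGTCA, bound by SF-1 in steroid-making cells, was in 11 of 1762 cluster DHSs (0.624%), in 0.917% of the others and in 0.819% of the windows, so no difference was detectable. The cyclic AMP response element was in 1.14% and 0.569%, and CACGTG in 6.36% and 4.23%. Both sequences hold a CpG, and their shares were not split by CpG ratio or matched on width. GTTCGANNC, the core of the tRNA B box, was in 47 of the 65 cluster DHSs on tRNA genes and in 9 of 1664 cluster DHSs farther than 1 kb from a tRNA gene. All sequences were searched on both strands of each DHS.

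**Figure D5:**
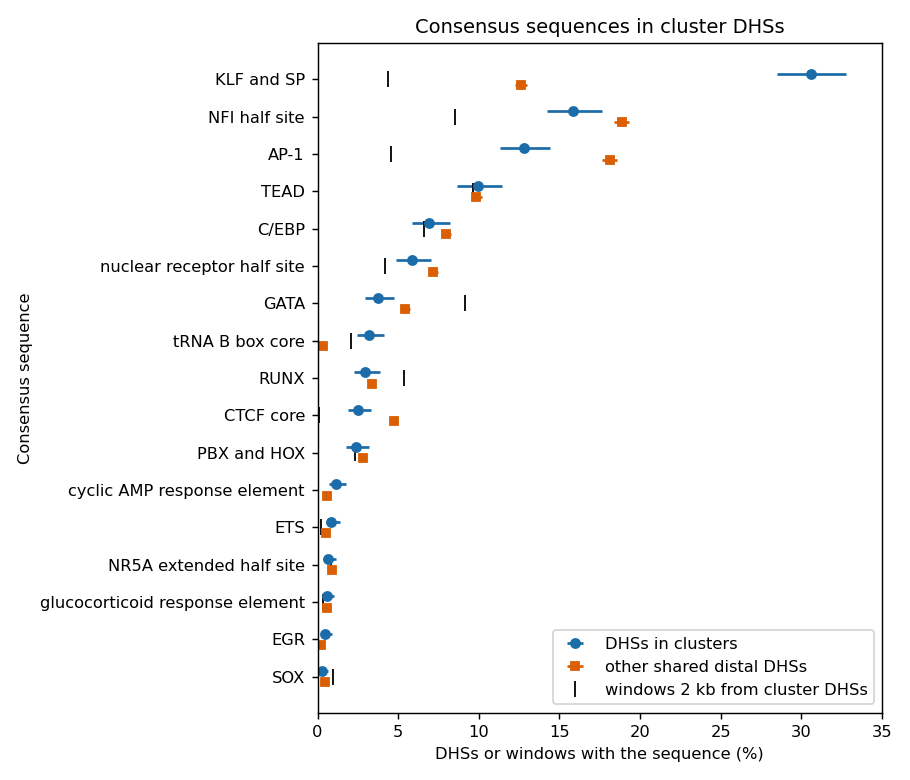
Share of DHSs that hold each consensus sequence (x axis, percent), with circles for cluster DHSs and squares for other shared distal DHSs, both with 95% Wilson intervals, and ticks for windows 2 kb away. The KLF and SP sequence stands at 30.6% in clusters and 12.6% outside, and AP-1 at 12.8% and 18.1%.

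Footprints were deposited for each library at an FDR of 0.01, so they carry no score of their own. Fewer cluster DHSs than other shared distal DHSs held a footprint, 90.1% (88.6 to 91.4) against 96.2% (96.0 to 96.4) in replicate 1 and 82.7% (80.9 to 84.4) against 88.6% (88.2 to 89.0) in replicate 2. In replicate 1 the gap was widest among weak DHSs. In the lowest height class, 67.2% of cluster DHSs had a footprint, against 89.8% of the others, and in the highest class 99.8% against 99.96%. In replicate 2 the highest class had 95.05% against 96.0%. The 175 cluster DHSs with no footprint in replicate 1 had a median height of 1.43 and a median width of 200 bp, against 3.48 and 180 bp for the 1587 with one. The Zfp503 cluster was an example, where 13 of 17 DHSs had a footprint in replicate 1 and 9 in replicate 2. In the Kdm6b cluster these numbers were 11 and 10 of 13.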

How the data were processed

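DNase-seq libraries of 2 adrenal glands formed 1 group. Per the file headers and the values, the deposited peak height is a signal value that the authors appear to have scaled to a library total. The authors' deposited FDR lists and footprint lists hold p-value-like false discovery rates (q-values), up to 0.05 and fixed at 0.01. All files are in mm10 and were made from each library's own filtered alignments, per the file headers. The sources used here name no aligner, peak caller or footprint caller. Read depth is not given either, and intervals are 95% Wilson intervals that cover counting error only, since sites are not animals.

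The members and the gene lists were chosen with earlier results of these data known. Starts came from GENCODE M21 (54374 protein-coding starts of 21866 genes), tRNA genes and microRNAs from RefSeq, both on GRCm38.p6. Each cluster took the gene whose protein-coding start was nearest to its centre. A replicate 2 DHS was counted once for each cluster, and a replicate 1 DHS took the height of the highest replicate 2 DHS that it overlapped. Named in the text were the first 12 clusters in full, then nearest genes of ranks 13 to 30 (2 of which are not reported here), extremes and at most 4 genes for each of 24 lists. The 3 immediate early genes beyond 4, the clusters at tRNA genes and single DHSs were named after their values were seen. The tRNA B box was added after seeing the data. Python 3.11.15, numpy 2.4.6, pandas 2.3.3, scipy 1.17.1, pysam 0.24.0, samtools 1.23.1 and matplotlib 3.10.9 were used. Chaining was tested on simulated data and found 248 of 248 planted chains. No hypothesis test was run, since 1 group of 2 animals allows none.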

Additional observations from a re-analysis of the deposited data

How the results depend on the processing

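No paired analysis was possible because there is only 1 group of 2 animals. The count of clusters depended on each limit of the rule. It was 172 (813 DHSs, 2.82% of DHSs and 3.76% of height) with gaps of at most 2.5 kb and 702 (3514, 12.2% and 15.6%) with 10 kb. It was 1078 (3892, 13.5% and 16.5%) with at least 3 DHSs and 70 (498, 1.73% and 2.34%) with at least 6. The longer lists gave 1282 (6367, 11.6% and 15.02%) and the strongest 50% of each list 135 (633, 4.91% and 5.70%). Each library alone gave 772 to 1154 clusters, 4713 to 6000 DHSs, 11.1 to 11.8% of DHSs and 12.7 to 14.1% of height. Shares were 5.24% and 6.95% with 50% overlap and 4.94% and 6.66% beyond 2.5 kb of a start, and 8.45% of height with replicate 2 DHSs chained. Chosen after seeing the data, leaving out DHSs at starts of any transcript or tRNA gene gave 234 clusters with 1104 DHSs, and counting overlapping DHSs as 1 gave 354. Ranking by mean height or by number of DHSs kept 5 of the first 12 each.

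Nearest genes were 4.67% of all genes with at least 3 DHSs, 5.44% with the longer lists and 5.98% within 100 kb. List genes then numbered 51 and 64 under the first 2 settings. Steroid synthesis genes numbered 2 with at least 3 DHSs, 5 with the longer lists (Cyp21a1, Fdxr, Hsd11b2, Por and Star) and 2 within 100 kb. Chromaffin genes numbered 1, 2 and 1. Adrenocortical regulators numbered 7 and 9 under the first 2, the 9 including Nr5a1, and immediate early genes 13 with the longer lists. Footprints were in 90.1% and 82.7% of cluster DHSs in replicate 1 and replicate 2 alone, against 78.3% in both.

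In percentage points, clusters minus outside, GGGCGG stood at 17.98, at 14.4 in the middle 150 bases and at 13.1 beside outside DHSs matched on width. The width match gave -7.04 for AP-1, -1.02 for the CTCF core and -4.98 for TTGGCA, against -5.35, -2.21 and -3.01. The tRNA gene ratio kept its direction under 5 alternatives chosen after seeing the data, from -1.57 to -0.95.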
